A study of Mus musculus with 6 samples.

Results

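The immunoglobulin heavy variable (Ighv) segments are the V genes of the mouse heavy chain locus on chromosome 12. In RNA sequencing counts of 6 mouse colon tumours, they were chosen by symbol and by measured count: every gene whose symbol starts with Ighv and whose counts summed to at least 10 over the 6 libraries, whatever their group. The table held 53700 genes, of which 185 were Ighv genes, and 105 of those met the rule. Of the other Ighv genes, 58 had 0 counts and 22 had between 1 and 9. The 105 segments comprised 99 of the 113 functional Ighv genes and 6 of the 70 Ighv pseudogenes in the annotation. The pseudogenes held 228 counts in all (0.0725% of the Ighv counts), and the functional segments held 314123 (99.9%). Just inside the rule were Ighv1-62 with 12 counts, Ighv1-56 with 14 and Ighv1-23 with 15. Just outside it were Ighv8-11 with 9 counts and Ighv1-33 and Ighv1-70 with 8 each.

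The 3 APC-KI mice had repressed Tcf7l2, had been on doxycycline for 6 weeks and were labelled recovered. The 3 APC-WT mice, with Tcf7l2 not repressed, had been on doxycycline for 10 days and were cachectic, cachexia being the wasting that goes with advanced cancer. Both sets received 100 mg/kg doxycycline in food pellets, which represses Tcf7l2 throughout the body in APC-KI mice and not in APC-WT mice. Genotype, time on doxycycline and cachexia therefore differed together between the groups, and their parts in any difference cannot be told apart. The sources used here do not give the age, sex or strain of the mice or the construct behind the repression. As read from the Y-linked counts given below, sex was not balanced between the groups either, and its part cannot be told apart from the rest. Each library was taken as 1 tumour of 1 mouse, which the labels do not state, so p-values measure the spread between these samples.

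An antibody heavy chain is encoded by a variable exon that each B cell assembles once, by joining a V, a D and a J segment in V(D)J recombination, and by a constant gene that sets the class. As a rule the progeny of a B cell keep its V segment. Plasma cells, the antibody-secreting end stage of the B lineage, hold by far the most heavy chain mRNA per cell. In the gut most of them make IgA, whose heavy chain constant gene is Igha.

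Sequences of V exons are shown first for the 3 segments that were the most used of at least 1 library. They are the final 300 bases of the coding V exon, 5′ to 3′ in the sense of the gene, from GENCODE M21 transcripts (GRCm38). The capitals mark the V gene's end of CDR3, the loop that lies across the V, D and J junctions, from the codon of the conserved second cysteine onward.
Ighv1-81: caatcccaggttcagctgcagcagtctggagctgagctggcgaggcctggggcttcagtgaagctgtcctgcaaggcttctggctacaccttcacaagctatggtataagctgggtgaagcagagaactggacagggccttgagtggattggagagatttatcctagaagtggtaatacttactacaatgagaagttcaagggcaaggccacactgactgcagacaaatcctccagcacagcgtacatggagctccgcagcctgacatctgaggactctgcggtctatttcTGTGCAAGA
Ighv1-12: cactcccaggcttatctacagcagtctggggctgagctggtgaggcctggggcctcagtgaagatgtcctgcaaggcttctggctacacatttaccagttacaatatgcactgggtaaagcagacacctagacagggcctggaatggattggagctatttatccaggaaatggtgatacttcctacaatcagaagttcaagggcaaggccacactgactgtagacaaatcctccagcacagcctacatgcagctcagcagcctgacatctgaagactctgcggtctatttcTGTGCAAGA
Ighv5-9-1: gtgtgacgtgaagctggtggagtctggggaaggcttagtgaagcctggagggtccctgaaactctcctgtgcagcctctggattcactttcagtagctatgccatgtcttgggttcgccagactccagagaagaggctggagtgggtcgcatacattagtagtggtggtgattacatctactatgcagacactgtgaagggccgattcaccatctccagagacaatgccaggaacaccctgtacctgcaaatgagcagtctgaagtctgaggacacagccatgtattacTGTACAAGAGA
Ighv1-81 and Ighv1-12 both belong to the large Ighv1 family and end in the same 9 capital letters. Ighv5-9-1 belongs to the Ighv5 family and ends in other letters. The nearest functional segment to Ighv1-81 was Ighv1-85 at 92.8% identity over the V exon (22 differing bases), that to Ighv1-12 was Ighv1-15 at 88.5% (35 differing bases), and that to Ighv5-9-1 was Ighv5-6 at 94.5% (17 differing bases).

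Not all segments are so distinct. A pair of abundant Ighv1 segments is shown because reads of one can pass for the other: Ighv1-26 and Ighv1-18 differ at 8 bases of the V exon, marked by the capitals.
Ighv1-26: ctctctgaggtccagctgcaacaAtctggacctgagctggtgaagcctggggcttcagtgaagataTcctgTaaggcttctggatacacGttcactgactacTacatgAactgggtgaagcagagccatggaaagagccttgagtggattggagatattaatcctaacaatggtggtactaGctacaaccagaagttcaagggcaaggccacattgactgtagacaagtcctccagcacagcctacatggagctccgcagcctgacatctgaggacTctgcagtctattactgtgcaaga
Ighv1-18: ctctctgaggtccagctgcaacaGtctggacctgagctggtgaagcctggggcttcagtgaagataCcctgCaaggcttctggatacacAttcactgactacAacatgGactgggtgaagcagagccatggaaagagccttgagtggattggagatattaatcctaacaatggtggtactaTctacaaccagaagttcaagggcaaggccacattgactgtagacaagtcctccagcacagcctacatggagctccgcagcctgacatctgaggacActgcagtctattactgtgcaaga
Over the 99 functional members the median identity to the nearest V exon was 95.1%, and for 25 of them it was above 97%. Ighv1-62-2 and Ighv1-71 had identical V exons. Counts of such segments are uncertain, since the way the authors' counting treated reads shared between copies was not given, and somatic mutation in mature antibodies can move a read from its own segment to a near copy.

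Library totals lay between 54895823 and 56825956 counts in APC-KI tumours and between 51777342 and 63921108 in APC-WT tumours. Tcf7l2, the repressed gene, fell in APC-KI tumours (log2 change -2.89, SE 0.19, adjusted p = 0.00124, edgeR), and the 3 APC-KI values were between 4.48 and 6.90 CPM (counts scaled to a common library size), against 35.6 to 44.1 CPM in APC-WT tumours. Y-linked genes had 0 counts in all 3 APC-KI libraries and in APC-WT replicate 3, and they had 19164 and 16055 counts in APC-WT replicates 1 and 2. In marker lists of other cells the summed levels were higher in APC-KI tumours, while many single genes were not called. All 6 smooth muscle genes tested were called higher in APC-KI tumours (summed level 687 to 1168 CPM in APC-KI, against 109 to 304 CPM in APC-WT tumours). Of 7 T cell genes 4 were called higher (35.3 to 54.6 CPM in APC-KI, against 23.5 to 27.0 CPM in APC-WT tumours), as were 2 of 5 macrophage genes (306 to 399 CPM in APC-KI, against 189 to 246 CPM in APC-WT), 3 of 6 epithelial genes (8959 to 10608 CPM in APC-KI, against 7078 to 8188 CPM in APC-WT), 1 of 5 fibroblast genes (1462 to 2173 CPM in APC-KI, against 430 to 1247 CPM in APC-WT) and 1 of 4 endothelial genes (191 to 235 CPM in APC-KI, against 135 to 181 CPM in APC-WT). The calls stand beside 12.5% of all genes tested that were called higher. None of these genes was called lower, and the part of these differences in the Ighv results was not tested.

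The summed Ighv level was far higher in APC-KI tumours. It was 1754, 2476 and 1054 CPM in APC-KI replicates 1 to 3, against 196, 257 and 125 CPM in APC-WT replicates 1 to 3. The groups did not overlap, and the lowest APC-KI tumour lay above the highest APC-WT tumour. The means were 1761 ± 711 CPM in APC-KI and 193 ± 66.3 CPM in APC-WT tumours (SD, n = 3 each), and the difference of mean log2 CPM was 3.17. As a share of all counts in a library, Ighv segments made up 0.165%, 0.236% and 0.104% in APC-KI tumours, against 0.0204%, 0.0269% and 0.0129% in APC-WT tumours. In bulk tumours more B-lineage cells and more antibody mRNA per cell cannot be told apart. No p is given for this sum, because the segments were chosen with earlier results of these data known.

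The rest of the antibody differed by much the same amount. The 8 heavy constant genes summed to 5609, 8489 and 4016 CPM in APC-KI tumours, against 604, 803 and 483 CPM in APC-WT tumours (difference of mean log2 CPM 3.22). The 99 kappa light chain variable (Igkv) segments with at least 10 counts summed to 2336, 2821 and 1376 CPM in APC-KI tumours, against 152, 298 and 162 CPM in APC-WT tumours (difference 3.42). For each 100 counts of heavy constant genes there were 31.3, 29.2 and 26.2 Ighv counts in APC-KI tumours, against 32.4, 32.04 and 25.8 in APC-WT tumours. These ratios overlapped, with means of 28.9 ± 2.53 and 30.1 ± 3.68 (SD, n = 3 each) in APC-KI and APC-WT tumours. Per 100 Igkv counts there were 75.1, 87.8 and 76.6 Ighv counts in APC-KI tumours, against 129, 86.2 and 77.2 in APC-WT tumours. The ratio of APC-WT replicate 1 stood above those of the other libraries, and in that library a single segment, Ighv5-9-1, held 3630 of 13040 Ighv counts.

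**Figure D1:**
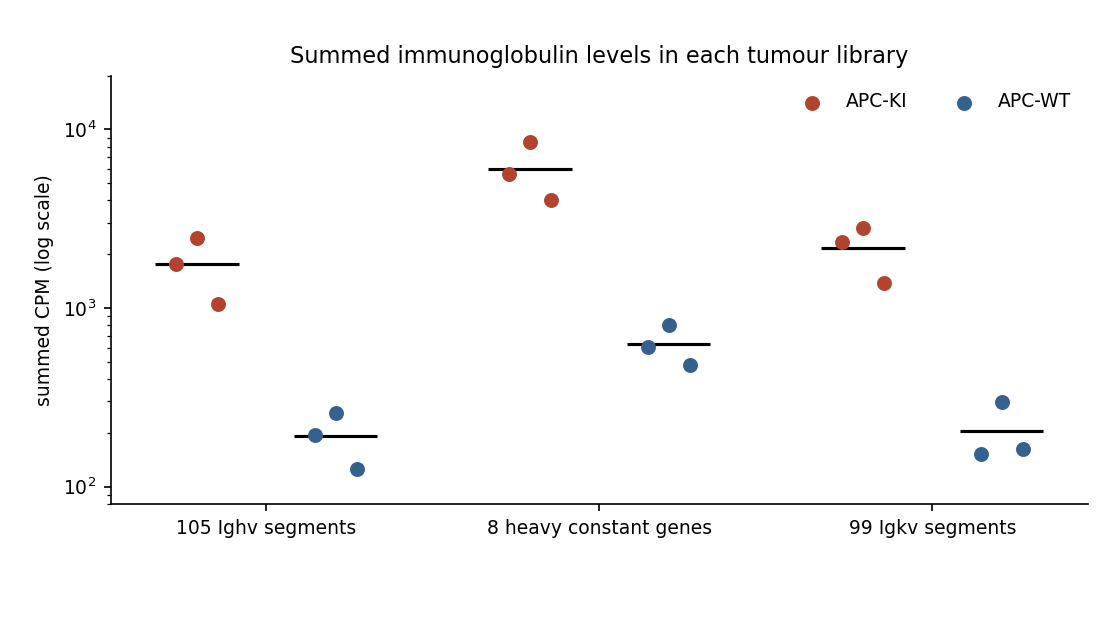
Summed level of the 105 Ighv segments, the 8 heavy constant genes and the 99 Igkv segments in CPM on a log axis, with 1 point per tumour library and a line at the group mean (n = 3 each). In all 3 sets the APC-KI libraries lie above the APC-WT libraries without overlap, and the Ighv sums run between 1054 and 2476 CPM in APC-KI and between 125 and 257 CPM in APC-WT tumours.

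Segment by segment, 37 of the 105 were called higher in APC-KI tumours and 0 were called lower by edgeR's quasi-likelihood test with Benjamini-Hochberg adjustment over all 19127 genes tested (threshold 0.05). Over all genes tested, 12.5% were called higher and 7.63% lower, 20.1% in all. A further 45 segments were tested and not called, and 23 did not pass the low-count filter, which asks for a minimum level in at least 3 libraries, with totals from 12 to 1000 that added up to 2061 counts in APC-KI and 82 counts in APC-WT libraries. At an unadjusted p under 0.05 there were 65 segments, beside 37.8% of all genes tested, and DESeq2 and limma-voom also called 0 segments lower. Of the 82 segments tested, 77 had a log2 change above 0 and 5 below 0, with a median of 3.10 and quartiles of 2.26 and 3.96. The median over all genes tested was -0.016. APC-KI and APC-WT values did not overlap for 56 of the 82, with the APC-KI tumours higher in all 56, and over all genes tested 23% were apart in that direction and 21.5% in the other. These counts carry a bias, since a segment could pass the low-count filter through the APC-KI libraries alone. Of the 82 tested, 55 reached the filter level of 0.181 CPM in all 3 APC-WT libraries too, and among those 30 were called higher and the median log2 change was 2.91.

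Single segments varied strongly between tumours of the same group. The median dispersion of the segments tested was 0.410 in the edgeR fit, against 0.0399 for the 15822 other genes in the same range of abundance. The 76 Igkv segments tested had a similar median dispersion (0.485), and 42 of them were called higher with a median log2 change of 3.26. The count of Ighv calls depended on which libraries entered, and it was 28, 24 and 50 without APC-KI replicates 1, 2 and 3, and 21, 22 and 25 without APC-WT replicates 1, 2 and 3. Of the 37 segments, 15 were called in each of these 6 fits. Calls over all genes changed as well. Those higher were 973, 985 and 2332 without APC-KI replicates 1, 2 and 3. They were 1567, 788 and 2542 without APC-WT replicates 1, 2 and 3, against 2388 with all 6 libraries. A fit over the 4 libraries with 0 Y-linked counts leaves APC-WT replicate 3 as the sole APC-WT tumour and assumes that it varies like the others. Its median log2 change was 4.06 over the 99 Ighv segments tested and 0.0075 over all genes tested. A sole APC-WT tumour shows no spread of its own, so no count called higher is given for this fit.

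The steadiest of the named increases was that of Ighv5-17, a segment of the Ighv5 family. It had 33.3, 44.0 and 50.6 CPM in APC-KI tumours, against 4.96, 2.87 and 3.40 CPM in APC-WT tumours. The spread within each group was small beside the distance between the groups, and the log2 change was 3.51 (SE 0.26, adjusted p = 0.0022). The call held in each of the 6 fits that left out a library.

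Ighv1-81 was the most abundant segment. It had 322, 255 and 111 CPM in APC-KI tumours, against 21.1, 31.9 and 18.2 CPM in APC-WT tumours. The lowest APC-KI value was above 3 times the highest APC-WT value, and the segment rose with a log2 change of 3.27 (SE 0.44, adjusted p = 0.00776), close to that of the Ighv sum. Its call too held without each library in turn. Ighv1-26, the next by mean share, had 221, 107 and 42.5 CPM in APC-KI tumours, against 3.90, 9.39 and 10.4 CPM in APC-WT tumours. It rose with a log2 change of 3.97 (SE 0.69, adjusted p = 0.0147), and 4 of the 6 fits with a library left out called it. Its near copy Ighv1-18 was not called (log2 change 2.16, SE 0.87, adjusted p = 0.124) and overlapped between the groups, with 18.7, 35.4 and 3.70 CPM in APC-KI tumours, against 2.13, 2.64 and 8.15 CPM in APC-WT tumours.

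The 5 largest increases were all of segments below 2 CPM in every APC-WT tumour, with APC-KI tumours that differed widely among themselves. Ighv1-12 had 6.67, 50.6 and 189 CPM in APC-KI tumours, against 1.44, 1.18 and 0.26 CPM in APC-WT tumours (log2 change 6.39, SE 1.35, adjusted p = 0.0245). Replicate 3 held most of the APC-KI counts, 2 of the 6 fits with a library left out called the segment, and limma-voom did not (adjusted p = 0.152). Ighv1-5 had 5.99, 148 and 9.14 CPM in APC-KI tumours, against 1.12, 0.65 and 0.13 CPM in APC-WT tumours (log2 change 6.38, SE 1.59, adjusted p = 0.0377), and here replicate 2 was the high one. Its call held in 3 of the 6 fits with a library left out and not by limma-voom (adjusted p = 0.153). Ighv1-47 had 28.7, 15.9 and 0.52 CPM in APC-KI tumours, against 0.03, 0.30 and 0.50 CPM in APC-WT tumours (log2 change 5.78, SE 1.52, adjusted p = 0.0434). In APC-KI replicate 3 its level was close to that in APC-WT replicate 3, and its call held in 1 of the 6 fits and not by limma-voom (adjusted p = 0.193).

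The other members of the 5 were Ighv1-69 and Ighv5-9. Ighv1-69 had 9.01, 7.82 and 25.3 CPM in APC-KI tumours, against 0.12, 0.23 and 0.19 CPM in APC-WT tumours (log2 change 6.29, SE 0.63, adjusted p = 0.00462), and the call held without each library in turn. Ighv5-9 had 10.9, 38.2 and 7.61 CPM in APC-KI tumours, against 0.73, 0.30 and 0.06 CPM in APC-WT tumours (log2 change 5.66, SE 1.00, adjusted p = 0.0154), with 5 of the 6 calls held. Neither overlapped between the groups.

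Among the 3 most used of a library were 4 further segments that were called higher. Ighv2-2 had 93.9, 18.2 and 11.3 CPM in APC-KI tumours, against 0.57, 1.00 and 2.21 CPM in APC-WT tumours (adjusted p = 0.0219). Ighv7-3 had 64.0, 145 and 12.8 CPM in APC-KI tumours, against 1.38, 1.85 and 3.38 CPM in APC-WT tumours (adjusted p = 0.0172). Ighv1-7, whose call held without each library, had 31.5, 26.0 and 59.4 CPM in APC-KI tumours, against 2.46, 1.42 and 0.58 CPM in APC-WT tumours (adjusted p = 0.00697). Ighv3-6 had 33.9, 93.8 and 18.4 CPM in APC-KI tumours, against 9.13, 8.02 and 3.65 CPM in APC-WT tumours (adjusted p = 0.0329). The highest APC-KI library was replicate 1 for Ighv2-2, replicate 2 for Ighv7-3 and Ighv3-6 and replicate 3 for Ighv1-7, and the groups did not overlap in any of the 4. With a library left out, the call of Ighv2-2 held in 3 of the 6 fits, that of Ighv7-3 in 2 and that of Ighv3-6 in 1, and limma-voom called none of these 3 (adjusted p = 0.0635, 0.0854 and 0.0716).

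The most used of the segments that were not called had uneven libraries. Ighv5-16 had 2.92, 125 and 2.54 CPM in APC-KI tumours, against 2.02, 14.05 and 0.58 CPM in APC-WT tumours (log2 change 2.97, SE 1.80, adjusted p = 0.270). Each group had 1 library far above its others, and without APC-KI replicate 2 the log2 change was -1.02. Ighv6-6 had 43.2, 118 and 5.21 CPM in APC-KI tumours, against 1.14, 8.83 and 1.29 CPM in APC-WT tumours (adjusted p = 0.0792). Ighv1-22 had 34.1, 47.0 and 19.4 CPM in APC-KI tumours, against 7.57, 12.2 and 0.73 CPM in APC-WT tumours (adjusted p = 0.107), and Ighv1-39 had 46.3, 29.1 and 9.87 CPM in APC-KI tumours, against 6.15, 9.25 and 2.84 CPM in APC-WT tumours (adjusted p = 0.0550). The values of these last 2 segments did not overlap between the groups even though the test did not call them.

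Ighv5-9-1 went the other way on average and was not called (log2 change -1.09, SE 1.35, adjusted p = 0.586). It had 19.4, 4.90 and 3.91 CPM in APC-KI tumours, against 54.4, 1.04 and 4.56 CPM in APC-WT tumours. APC-WT replicate 1 was far above the other libraries. Without it the log2 change was 1.75, and limma-voom over all 6 libraries gave 0.049. The 4 other segments below 0, none of them called, were Ighv3-4 (-0.93), Ighv3-5 (-0.60), Ighv1-31 (-0.45) and Ighv14-2 (-0.32), named after their values were seen.

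**Figure D2:**
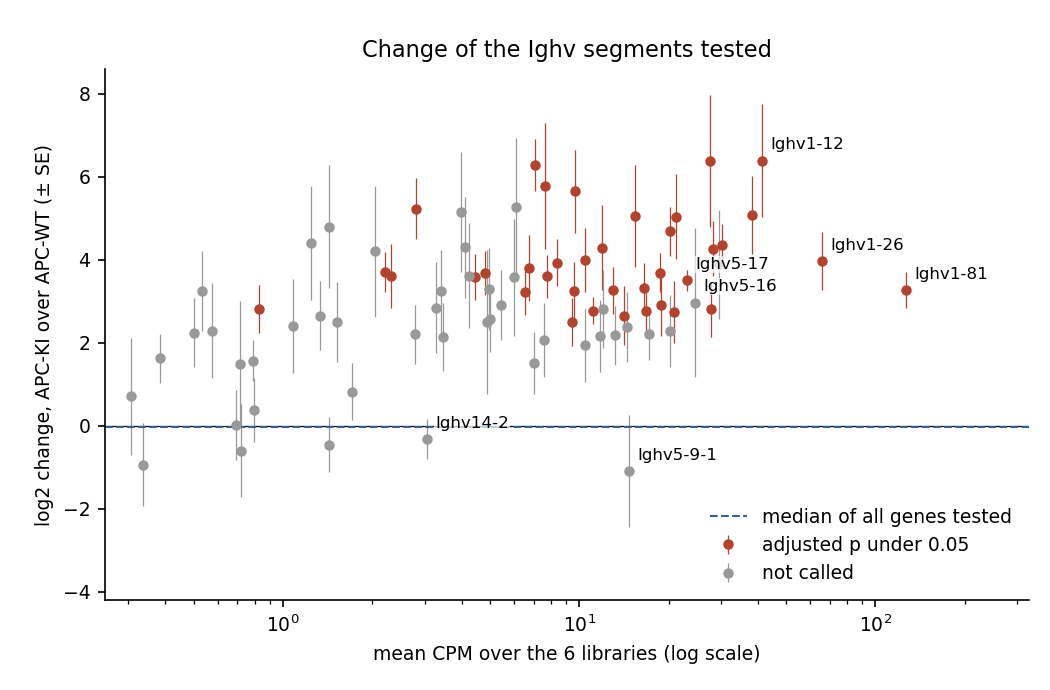
Log2 change of the 82 Ighv segments tested, APC-KI over APC-WT, against mean CPM over the 6 libraries on a log axis. Bars are standard errors derived from the edgeR F statistic. Red points have an adjusted p under 0.05 (37 segments), grey points were not called (45), and the dashed line is the median of all genes tested (-0.016). Red points all lie above 0, and the bars are long for Ighv1-12, Ighv5-16 and Ighv5-9-1.

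Shares within the Ighv counts of a library remove the difference in total level. The 6 libraries had 91329, 129436 and 59233 Ighv counts in APC-KI and 13040, 14638 and 6675 in APC-WT tumours, so that the shares of APC-WT tumours rest on fewer counts. A segment with 0 counts may have had a share of up to 0.0023% to 0.0051% in APC-KI and 0.020% to 0.045% in APC-WT libraries (3 counts of the Ighv total). Intervals and limits cover counting error only. Exonic lengths lay between 347 and 480 bases with a median of 353. Divided by length, the largest share, that of Ighv5-9-1 in APC-WT replicate 1, went from 27.8% to 25.4%. The shares are of counts, and reads shared between near copies can affect them too.

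The most used segment was Ighv1-81 in 4 of the 6 libraries. Its share was 18.3%, 10.3% and 10.6% in APC-KI tumours, against 10.8%, 12.4% and 14.6% in APC-WT tumours, and it ranked first or second in each of them. Among the 59 segments with at least 1000 counts, it had the smallest ratio of highest to lowest share (1.78). The remaining libraries each had a leading segment of their own. In APC-KI replicate 3 it was Ighv1-12 with 17.9% (95% exact binomial interval 17.6% to 18.3%), a segment that held 0.380% and 2.04% in APC-KI replicates 1 and 2, against 0.736%, 0.458% and 0.210% in APC-WT tumours. In APC-WT replicate 1 it was Ighv5-9-1 with 27.8% (27.1% to 28.6%), the highest share of any segment in any of the 6 libraries. That segment held 1.11%, 0.198% and 0.371% in APC-KI tumours, against 0.403% and 3.66% in APC-WT replicates 2 and 3. Its highest share was 141 times its lowest, the largest ratio among the segments with at least 1000 counts and no library at 0, and its ranks were 29, 60 and 50 in APC-KI and 1, 47 and 5 in APC-WT tumours. For both segments, printed above, the nearest V exon was under 97% identical.

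The next segments differed from tumour to tumour too. After the leading one came Ighv1-26 (12.6%) and Ighv2-2 (5.35%) in APC-KI replicate 1, Ighv1-5 (6.00%) and Ighv7-3 (5.87%) in APC-KI replicate 2, and Ighv1-81 and Ighv1-7 (5.63%) in APC-KI replicate 3. In APC-WT tumours they were Ighv1-81 and Ighv3-6 (4.67%) in replicate 1, Ighv5-16 (5.46%) and Ighv1-22 (4.75%) in replicate 2, and Ighv1-26 (8.34%) and Ighv1-18 (6.53%) in replicate 3. Apart from Ighv1-81, Ighv1-26 was the sole segment with rank 2 or 3 in libraries of both groups. Ighv5-16 had rank 2 in APC-WT replicate 2 and rank 4 in APC-KI replicate 2 (5.06%), while it held between 0.17% and 1.04% in the other 4 libraries.

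**Figure D3:**
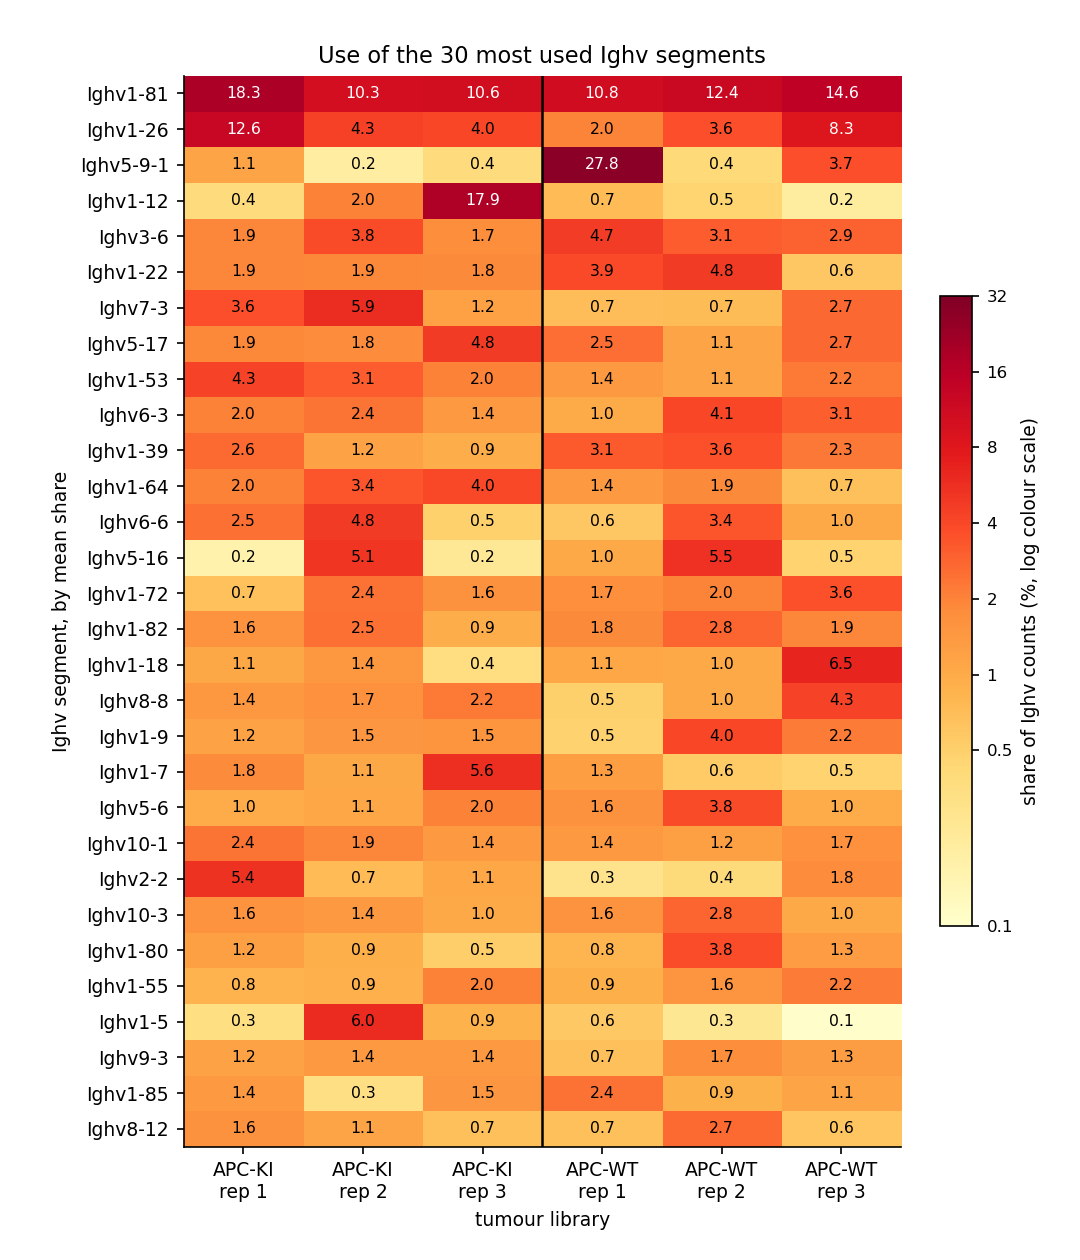
Share of Ighv counts (%) of the 30 segments with the highest mean share, 1 row per segment and 1 column per library, on a log colour scale with the share printed in each cell. Ighv1-81 is dark in all 6 columns (10.3% to 18.3%), whereas Ighv1-12 (17.9%) is dark in APC-KI replicate 3 alone and Ighv5-9-1 (27.8%) in APC-WT replicate 1 alone.

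Dominance as a whole did not separate the groups. The share of the leading segment was 18.3%, 10.3% and 17.9% in APC-KI tumours, against 27.8%, 12.4% and 14.6% in APC-WT tumours, and the ranges overlapped. The 10 most used segments of each library held 55.7%, 49.6% and 56.6% of its Ighv counts in APC-KI tumours, against 61.2%, 49.0% and 52.5% in APC-WT tumours. To reach 50% of the counts took 8, 11 and 8 segments in APC-KI tumours, against 5, 11 and 10 in APC-WT tumours. The inverse Simpson index, which gives the number of equally used segments that would have the same evenness, was 15.8, 28.2 and 16.8 in APC-KI tumours, against 10.0, 26.0 and 21.5 in APC-WT tumours. Replicate 2 was the most even library of each group, and APC-WT replicate 1 the least even of all 6. Without APC-WT replicate 1, the mean share of the leading segment was 2.02 percentage points higher in APC-KI than in APC-WT tumours, whereas with all 6 libraries the difference was -2.76 points.

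The number of segments seen was 100, 103 and 100 in APC-KI tumours, against 90, 93 and 85 in APC-WT tumours, without overlap. Thinned to 6675 Ighv counts, the depth of the shallowest library, the expected numbers were 87.1, 91.2 and 88.1 in APC-KI tumours, against 86.4, 89.3 and 85.0 in APC-WT tumours, and the groups overlapped. Of the 105 segments, 78 had at least 1 count in all 6 libraries, 96 in all 3 APC-KI libraries and 79 in all 3 APC-WT libraries. The 5 with 0 counts in every APC-WT library were Ighv1-23, Ighv1-49, Ighv1-83, Ighv5-2 and Ighv8-6. They had few counts in all (15, 88, 15, 28 and 15), those of Ighv8-6 all in APC-KI replicate 2. At the lower Ighv depth of APC-WT libraries, 0 counts do not show that a segment was absent.

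**Figure D4:**
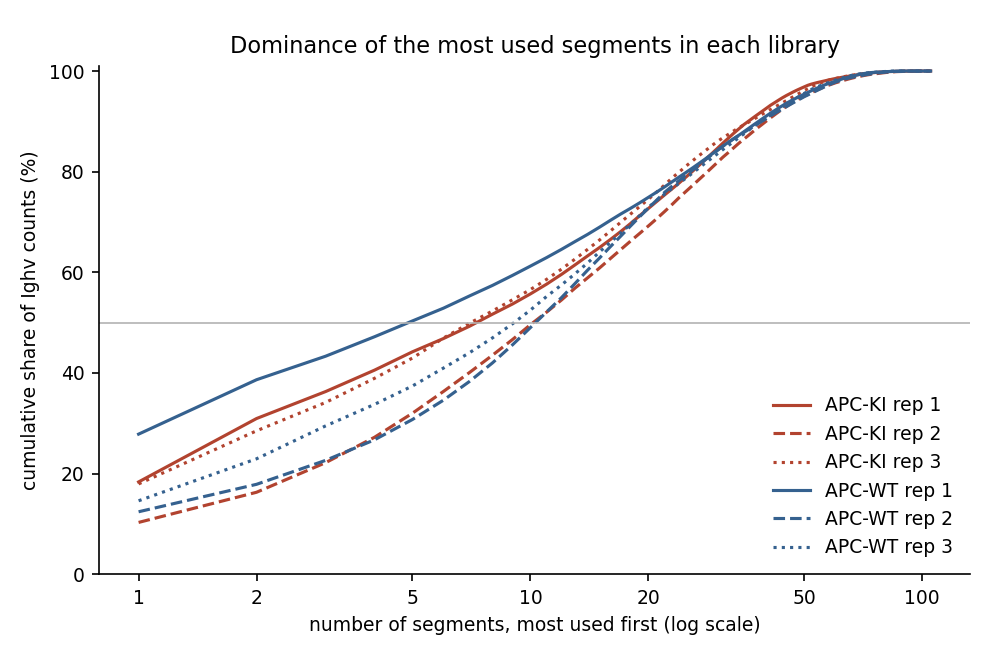
Cumulative share of Ighv counts (%) against the number of segments, most used first, on a log axis, with 1 line per library (red APC-KI, blue APC-WT). The curve of APC-WT replicate 1 starts highest (27.8%) and crosses 50% at 5 segments, the 2 replicates numbered 2 cross it at 11, and the curves of the groups interleave.

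By sequence, mouse V segments fall into families, and the number before the hyphen of the symbol names the family. The Ighv1 family, with 53 of the 105 segments, took the largest share in every library: 66.2%, 58.8% and 74.4% in APC-KI tumours, against 46.8%, 58.4% and 60.3% in APC-WT tumours. These ranges overlapped, with means of 66.5% ± 7.79 and 55.2% ± 7.28 in APC-KI and APC-WT tumours (SD, n = 3 each). The Ighv5 family (9 segments) held 4.91%, 10.9% and 8.88% in APC-KI tumours, against 34.3%, 11.5% and 9.38% in APC-WT tumours. These ranges overlapped as well, and the highest was that of APC-WT replicate 1, which carried Ighv5-9-1. With Ighv5-9-1 and Ighv1-12 taken out of all libraries, 2 segments chosen after their values were seen, the Ighv1 share was 66.8%, 58.1% and 69.1% in APC-KI tumours, against 64.5%, 58.4% and 62.5% in APC-WT tumours. The Ighv5 share was then 3.86%, 11.0% and 10.4% in APC-KI tumours, against 8.99%, 11.2% and 5.95% in APC-WT tumours, and both families still overlapped between the groups.

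The small Ighv14 family behaved otherwise. Its 4 segments held 0.695%, 1.04% and 0.797% of Ighv counts in APC-KI tumours, against 2.11%, 3.17% and 4.78% in APC-WT tumours, and the ranges did not overlap with or without Ighv5-9-1 and Ighv1-12. Ighv14-2 carried most of this, with 0.172%, 0.120% and 0.204% in APC-KI tumours, against 0.667%, 2.08% and 2.80% in APC-WT tumours. In level, Ighv14-2 had 3.02, 2.96 and 2.15 CPM in APC-KI tumours, against 1.30, 5.36 and 3.50 CPM in APC-WT tumours, which overlapped. The other members Ighv14-1, Ighv14-3 and Ighv14-4 had log2 changes of 2.29, 2.91 and 0.82, and none of the 4 was called. The family was singled out after its values were seen, among 15 families.

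Of the 48 segments with a mean share of at least 0.5%, 3 had shares that were higher in every APC-KI than in every APC-WT library (6.25%) and 3 had shares that were lower (6.25%). The higher ones were Ighv1-64 (2.02%, 3.40% and 3.98% in APC-KI tumours, against 1.373%, 1.87% and 0.674% in APC-WT tumours), Ighv1-69 (0.514%, 0.316% and 2.399% in APC-KI tumours, against 0.0613%, 0.0888% and 0.150% in APC-WT tumours) and Ighv5-9 (0.624%, 1.54% and 0.723% in APC-KI tumours, against 0.376%, 0.116% and 0.0449% in APC-WT tumours). The lower ones were Ighv14-2, Ighv2-9-1 (0.606%, 0.674% and 0.375% in APC-KI tumours, against 2.07%, 2.28% and 0.734% in APC-WT tumours) and Ighv5-4 (0.0515%, 0.472% and 0.415% in APC-KI tumours, against 0.621%, 0.533% and 1.00% in APC-WT tumours). The shares of the other 42 segments overlapped between the groups. As many segments were apart in one direction as in the other, and no difference in use is read from these counts.

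**Figure D5:**
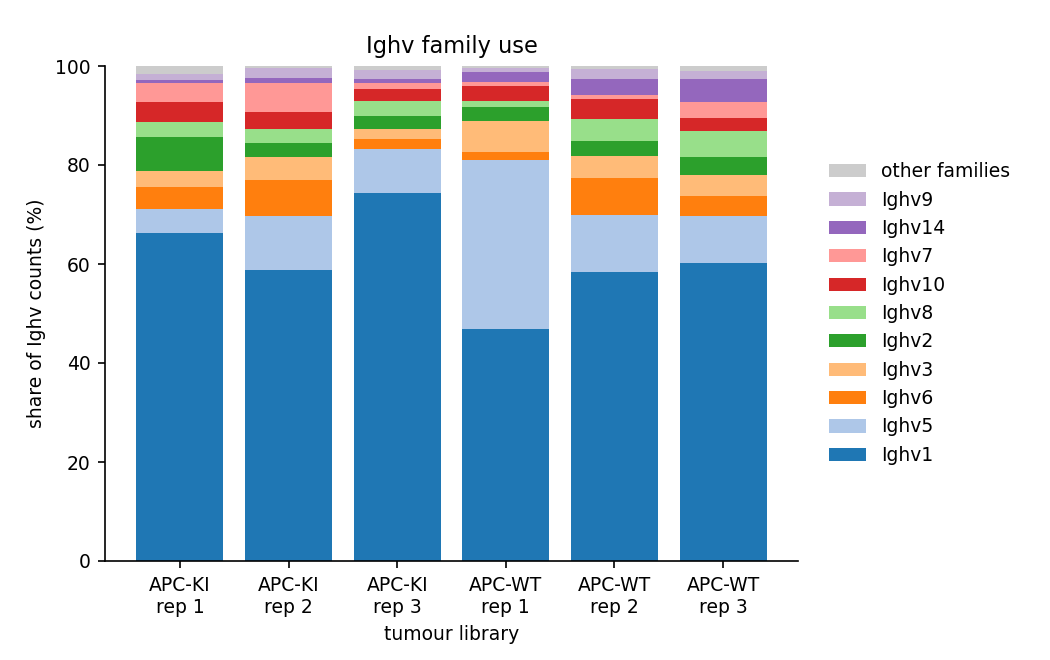
Share of Ighv counts (%) by family in each tumour library, as stacked bars for the 10 families with the highest mean share and the rest together. Ighv1 is the largest block in all 6 libraries (46.8% to 74.4%), and the Ighv5 block reaches 34.3% in APC-WT replicate 1.

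Position in the locus was read from the gene order in GENCODE M21. The locus was divided by gene number into 3 equal stretches: one nearest the D segments (38 of the 105 segments), one in the middle (29) and one farthest from them (38). The nearest stretch held 21.2%, 27.1% and 17.9% of Ighv counts in APC-KI tumours, against 47.2%, 24.98% and 25.8% in APC-WT tumours. The farthest stretch held 42.7%, 39.9% and 38.5% in APC-KI tumours, against 30.9%, 40.5% and 40.9% in APC-WT tumours. Both overlapped between the groups, and APC-WT replicate 1 again stood apart. Without Ighv5-9-1 and Ighv1-12 the nearest stretch held 20.4%, 27.5% and 21.4% in APC-KI tumours, against 27.1%, 24.8% and 23.0% in APC-WT tumours, and the farthest stretch held 43.3%, 40.9% and 47.2% in APC-KI tumours, against 43.2%, 40.8% and 42.5% in APC-WT tumours.

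Likeness in the use of segments between tumours was read in 2 ways, one that weights abundant segments and one by rank. The Morisita-Horn index, which is 1 for identical shares and goes mainly by abundant segments, was 0.560 to 0.741 for the 3 pairs of APC-KI tumours, 0.386 to 0.780 for the 3 pairs of APC-WT tumours and 0.286 to 0.872 for the 9 pairs across groups. The most alike pair was APC-KI replicate 1 with APC-WT replicate 3 (0.872), in which Ighv1-81 and Ighv1-26 came first and second in both libraries. The least alike was APC-KI replicate 3 with APC-WT replicate 1 (0.286), the libraries led by Ighv1-12 and Ighv5-9-1. By this index the pairs within groups lay inside the range of the pairs across groups. Spearman's rho of the shares over the 105 segments was 0.750 to 0.823 for the pairs of APC-KI tumours, 0.758 to 0.809 for the pairs of APC-WT tumours and 0.690 to 0.791 for the pairs across groups, so that by rank the highest values were within groups. It is a description, as segments are not replicates and share the depth of their library.

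Other genes of the B lineage were read from the same fit, in which 12.5% of all genes tested were called higher and 7.63% lower. Here too a gene could pass the low-count filter through the APC-KI libraries alone. Of 8 heavy constant genes 4 were called higher and 0 lower (median log2 change 3.11), namely Igha, Ighm, Ighg1 and Ighg2b, which encode the constant parts of IgA, IgM and 2 IgG subclasses. Igha had 5490, 8005 and 2850 CPM in APC-KI tumours, against 577, 711 and 453 CPM in APC-WT tumours (log2 change 3.23, SE 0.40, adjusted p = 0.0067). Of 13 plasma cell genes 9 were called higher and 0 lower (median log2 change 1.01). They include Jchain, the chain that links IgA and IgM into polymers, with 1319, 1558 and 640 CPM in APC-KI tumours, against 93.5, 158 and 105 CPM in APC-WT tumours (log2 change 3.30, SE 0.38, adjusted p = 0.0061). The others, Sdc1, Sec11c, Fkbp11 and Eaf2, were not called (log2 changes of -0.09, 0.18, 0.64 and 0.79). Which cells of the tumours the counts of the listed genes came from was not tested.

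Of 13 mature B cell genes 3 were called higher and 0 lower (median log2 change 2.77), beside 12.5% higher and 7.63% lower over all genes tested. Cd79a, a signalling chain of the B cell receptor, had 10.6, 25.7 and 6.74 CPM in APC-KI tumours, against 1.17, 1.44 and 1.12 CPM in APC-WT tumours (log2 change 3.52, SE 0.53, adjusted p = 0.0095). The summed mature B cell level was 37.0, 151.4 and 32.1 CPM in APC-KI tumours, against 16.98, 20.8 and 25.6 CPM in APC-WT tumours, and APC-KI replicate 2 was the high library. That library also had the highest summed Ighv level and the most even use of segments.

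Pou2af1 and Pou2f2, a coactivator and an octamer-binding factor that act on immunoglobulin promoters, were called higher among the 3 octamer factors. Pou2af1 had 33.2, 45.8 and 23.5 CPM in APC-KI tumours, against 3.63, 4.61 and 3.63 CPM in APC-WT tumours (log2 change 3.11, SE 0.27, adjusted p = 0.0034), and Pou2f2 had a log2 change of 1.28 (adjusted p = 0.0494). The ubiquitous Pou2f1 was not called (log2 change -0.42, adjusted p = 0.0594). Of 9 lymphoid follicle genes tested 2 were called higher and 0 lower, beside 12.5% higher and 7.63% lower over all genes tested. They were the chemokines Ccl21a (log2 change 2.21, adjusted p = 0.0187) and Ccl19 (4.19, adjusted p = 0.0227). Ccl19 was at a low level, with 0.346, 1.03 and 0.302 CPM in APC-KI tumours, against 0, 0.0528 and 0.0374 CPM in APC-WT tumours. Each APC-WT value was under the filter level of 0.181 CPM, so Ccl19 was tested through the APC-KI libraries alone.

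Genes of V(D)J recombination and class switching had calls in both directions. Of 10 tested 1 was called higher and 2 lower (median log2 change -0.27), beside 12.5% higher and 7.63% lower over all genes tested. With so few genes nothing is read from these counts. Dntt, which adds bases at the junctions, was higher at a low level (0.463 to 0.975 CPM in APC-KI tumours, against 0.0450 to 0.229 CPM in APC-WT tumours, adjusted p = 0.0409). Xrcc6, which encodes a subunit of the Ku end-joining complex, was lower (log2 change -0.33, adjusted p = 0.0377). Rag1 and Rag2, the recombinase, reached at most 0.057 and 0.058 CPM in any library and were not tested. Of 7 germinal centre genes tested 1, Fas, was called higher and 0 lower (median log2 change -0.00033).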

How the data were processed

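RNA sequencing counts of 6 colon tumours were used, 3 of APC-KI and 3 of APC-WT mice by the sample titles. Values in the deposited table were raw counts per gene, whole numbers throughout, per the file headers and values. Per the labels' protocols, total RNA was extracted from tumours pinched off the muscle layer and libraries were made with a stranded mRNA kit. Trim Galore 0.6.4, cutadapt 2.5, STAR, DESeq2 1.37.6, GRCm38 and mm10 are named in the submitters' processing notes. Their roles, the counter, its strand setting, its treatment of reads shared between copies and the annotation release are not given in the sources used here.

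Symbols, gene types and gene order came from GENCODE M21, which named 52093 of 53700 identifiers and left 1607 unnamed. Of 67 symbols with several identifiers, the one with most counts took the symbol. No coordinates are given, as no more than 35 identifier versions matched those of M21. Genes passing filterByExpr were scaled by TMM and tested with edgeR 4.0.16 in R 4.3.3 (robust glmQLFit, glmQLFTest, group the sole term), with Benjamini-Hochberg adjustment over 19127 genes. A positive change means a higher level in APC-KI, and CPM uses TMM library sizes. Each SE was derived as the absolute log2 change divided by the square root of the test's F statistic. Within groups, libraries differed beyond sampling noise (chi-square per gene 40.1 to 114), so none was taken as a technical repeat of another. Each was taken as 1 replicate, and these values cannot show that each came from its own mouse. The fit was tested on simulated data.

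The members and lists were chosen with earlier results of these data known. For sums, ratios and shares over the members no p is given. Named were the 3 most used segments of each library, the 8 with the highest mean share, the 5 largest increases called and, had there been any, decreases, the 5 most used segments not called, the extremes of share ratio among segments with at least 1000 counts, members of each list with small p, and segments at the edge of the 10-count rule. Segments named outside this rule are said to be so where they appear or were taken by a count given there. Alternatives were DESeq2 1.42.0, limma-voom (limma 3.58.1), other scalings and filters, a replicate block, each library left out, the 4 libraries without Y-linked counts and, chosen after the data were seen, counts divided by exonic length. Some genes of the lists are not reported here.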

Additional observations from a re-analysis of the deposited data

How the results depend on the processing

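The summed Ighv level kept its direction in every alternative, with a difference of mean log2 CPM of 2.88 to 3.50 when single libraries were left out. The count of segments called lower was 0 in every alternative. The count called higher, 37 in the fit reported, was 66 by DESeq2, 23 with no filter on low counts, and between 21 and 50 with 1 library left out. Over all genes, those called higher were 2388 in the fit reported, 3362 by DESeq2, and between 788 and 2542 with 1 library left out. It was 29 by limma-voom, 37 to 39 under other scalings, and 35 with CPM above 1 in at least 3 samples. The labels tie samples of the same number by that number alone. The correlations of their deviations were 0.035, -0.068 and -0.182 over all genes tested and -0.150, 0.132 and -0.105 over the Ighv segments tested. In groups of 3 such values cannot show that nothing else was shared. The replicate block gave 37 higher and 0 lower calls, of which 28 were among the 37 reported. Of the named segments, the block lost Ighv1-12, Ighv1-26, Ighv1-47, Ighv1-5, Ighv2-2 and Ighv7-3 (adjusted p = 0.064 to 0.191) and gained Ighv1-39 and Ighv6-6. Over all genes it called 1195 higher and 465 lower, against 2388 and 1459 without it.

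Measures of evenness and the ratio to constant genes had no stable sign. The difference in the share of the leading segment was -2.76 points and ran between -5.69 and 2.02 with 1 library left out. That in the log2 effective number of segments was 0.14, ran between -0.27 and 0.41 with 1 library left out, and was -0.11 without the most used segment of each library. That in segments detected at equal depth was 1.90, and -1.58 where at least 5 counts were asked for. The log2 ratio of Ighv to heavy constant counts differed by -0.055, by -0.16 to 0.013 with 1 library left out, and by 0.037 against Igha alone. With all 6 libraries the groups overlapped in each of these, and the cause of the changes was not tested. The share of the Ighv1 family was 11.3 points higher in APC-KI tumours, and 7.13 to 15.1 points higher with 1 library left out. Divided by exonic length, the leading segment of each library was the same, with 18.9%, 10.8% and 17.3% in APC-KI and 25.4%, 12.8% and 15.1% in APC-WT tumours.

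Over the 18 named segments, 285 alternative values were computed, of which 214 kept direction and side of the threshold, 58 lost the call, 8 gained it and 5 changed sign. Ighv5-16 had log2 changes of -1.02 to 5.04 with 1 library left out, the lowest without APC-KI replicate 2. Ighv5-9-1 had 0.049 by limma-voom, 0.063 with the replicate block, 1.04 over 4 libraries, and -2.18 to 1.75 with 1 library left out, the highest without APC-WT replicate 1. Precision is limited by 3 tumours a group, and by 6675 Ighv counts in the shallowest library.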

Other observations

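The class makeup of the heavy constant counts also differed between single tumours. Igha made up 97.9%, 94.3% and 71.0% of heavy constant counts in APC-KI replicates 1 to 3, against 95.5%, 88.6% and 93.8% in APC-WT replicates 1 to 3. APC-KI replicate 3 was the low library. In it Ighg1, the constant gene of IgG1, made up 13.6% of heavy constant counts, whereas it made up 0.533% and 1.09% in APC-KI replicates 1 and 2, against 0.698%, 2.30% and 2.04% in APC-WT tumours. Ighg2b, the constant gene of IgG2b, made up 12.7% in APC-KI replicate 3, whereas it made up 0.751% and 2.08% in APC-KI replicates 1 and 2, against 1.85%, 2.32% and 0.771% in APC-WT tumours. APC-KI replicate 3 is also the library led by Ighv1-12. The counts do not tie a variable segment to a constant gene, and whether Ighv1-12 was joined to an IgG constant part was not tested.

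APC-WT replicate 1, led by Ighv5-9-1, had an Igha share within the range of the other libraries. Its lambda light chain variable segments did not stand apart from those of its group. Their sum was 135, 296 and 86.7 CPM in APC-KI tumours, against 15.9, 44.9 and 15.8 CPM in APC-WT tumours.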
